A study of Mus musculus with 8 samples.

Results

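Processed pseudogenes of ribosomal protein genes are retrocopies: the spliced mRNA of a gene was reverse transcribed and inserted elsewhere in the genome, without introns and without the promoter of its source. Ribosomal protein genes encode the structural proteins of the large subunit (Rpl genes) and of the small subunit (Rps genes), and they have left many such copies in mammalian genomes. Most copies gather mutations, and reads from a young copy and from its source gene can be identical. The members described here are the 300 genes, among 58420 gene rows, whose mouse symbol in GENCODE M21 starts with Rpl or Rps and contains -ps. The parent gene of each was taken as the gene named before -ps. This gave 61 parent genes for 299 members, while Rpl48-ps1 had none in the table. Of these parents, Rps4l is itself typed in GENCODE as a transcribed processed pseudogene, and it was counted as a parent.

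RNA sequencing of total RNA from mouse embryonic stem cells covered 8 libraries in 4 groups of 2. Of these, 3 groups carry the treatment labels sh-linc1393, sd-linc1393 and dd-linc1393, called sh, sd and dd here, and the control group is labelled untreated and of WT genotype. linc1393 is a long noncoding RNA, and the series names its role in keeping pluripotency as the question. The abbreviations sd and dd are not spelled out, and a control that received a vector or an inert reagent was not analysed here, so effects of the target and of the handling of treated cells cannot be told apart. Each group has a library numbered replicate 1 and another numbered replicate 2. Nothing states that the numbers are separate cultures, so the p-values below speak only to the variation among these 8 libraries, whose source may be technical.

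The values are FPKM, fragments per kilobase of exon scaled to a library total. The reads behind them, recovered from the steps between low values, came to 13738589 and 13972323 in sh, 20346941 and 15365416 in sd, 19161796 and 20387062 in dd, and 6415129 and 3658367 in control, for replicate 1 and then replicate 2 of each. Of the reads in genes matched to GENCODE M21, the members held 6.67% to 9.62% in replicate 2 and 1.99% to 2.38% in replicate 1. The libraries thus stood apart by number before any treatment was considered. All 8 markers of mouse embryonic stem cells on the list used averaged at least 1 FPKM, and 0 of 7 fibroblast feeder markers did. Of other lists, 5 of 5 primitive endoderm, 2 of 4 trophoblast, 1 of 3 neuroectoderm and 0 of 3 mesoderm markers did. Feeder markers summed to 4.01, 3.67, 1.01 and 5.29 FPKM in sh, sd, dd and control of replicate 2. In those of replicate 1 they summed to 0.42, 0.68, 0.46 and 0.52 FPKM. No gene row could be tied to linc1393, so the target of the treatments was not checked. In such bulk samples, fewer cells of a type and less RNA per cell cannot be told apart.

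The annotation and the sequence both fit retrocopies for nearly all members. GENCODE types 287 as processed pseudogenes, 7 as transcribed processed pseudogenes and 6 as protein coding, namely Rpl10-ps3, Rpl36-ps4, Rpl36a-ps1, Rpl9-ps1, Rpl9-ps6 and Rps12-ps3. A single exon block made up 293 of them, with a median exon length of 459.5 bases (151 to 2871). Of the 299 members with a parent, 296 aligned to its mRNA over at least 100 bases, at a median identity of 96.0%, and 295 of these ran across at least 1 exon junction of the parent, 149 across every junction. An alignment in reverse orientation was found for 1 of them, Rpl13-ps1. The reading frame of the parent encoded the identical protein in 30 members and was uninterrupted at the same length in 68. Another 200 met neither condition: the frame was interrupted or of other length, or the copy lacked its start or stop. Near-identical copies can fall there, as Rps23-ps1 and Rps13-ps2 did. Rpl48-ps1 and Rps4l-ps, without a parent coding sequence, were not classed. Introns of other genes contained 85 members, 26 of them on the strand of the host gene, and 35 members lay on chromosome X.

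A junction shows the origin of a copy. Rps16-ps2 carries coding bases 19 to 78 of Rps16, a small-subunit protein gene, in 1 run at chr5:129128440-129128499 on the minus strand (GRCm38). The capitals mark the last base of exon 1 and the first base of exon 2, which in Rps16 are separated by an intron of 140 bases.
Rps16-ps2: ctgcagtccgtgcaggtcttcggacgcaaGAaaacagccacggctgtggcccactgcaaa

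Copies of 1 parent differ in how far they have diverged, which the Rpl35a family shows. Rpl35a encodes a large-subunit protein, and 60 of its coding bases (115 to 174) are set beside the same bases of its 6 members. This window, and those of Rpl30-ps6, Rps25-ps1 and Rps10-ps3 below, were chosen as the 60 aligned coding bases with the most differences. They therefore overstate how far the whole copies have diverged. In the parent, capitals mark each base at which at least 1 copy differs. In the copies, capitals mark the bases that differ from the parent.
Rpl35a: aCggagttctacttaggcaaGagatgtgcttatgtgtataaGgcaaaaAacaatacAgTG
Rpl35a-ps2: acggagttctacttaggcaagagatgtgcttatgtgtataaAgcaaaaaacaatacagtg
Rpl35a-ps3: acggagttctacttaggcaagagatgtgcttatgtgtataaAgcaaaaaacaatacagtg
Rpl35a-ps4: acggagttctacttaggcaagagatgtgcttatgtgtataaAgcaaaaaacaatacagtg
Rpl35a-ps6: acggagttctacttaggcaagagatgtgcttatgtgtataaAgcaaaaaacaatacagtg
Rpl35a-ps5: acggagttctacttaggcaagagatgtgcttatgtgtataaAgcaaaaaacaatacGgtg
Rpl35a-ps7: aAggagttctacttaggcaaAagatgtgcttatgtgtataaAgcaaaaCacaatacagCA
The windows lie at chr1:181242147-181242206 (ps2), chr17:29137131-29137190 (ps3), chr2:108875085-108875144 (ps4), chr5:123255640-123255699 (ps6) and chr6:47815459-47815518 (ps7) on the minus strand, and at chr5:33076152-33076211 (ps5) on the plus strand. Over 60 bases, ps2, ps3, ps4 and ps6 are the same sequence, with 1 difference from the parent, while ps7 has 6.

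Among the copies, those with more differences in this window had fewer reads, while the parent did not follow this order. In the control replicate 1 library, Rpl35a-ps2, -ps3, -ps4 and -ps6 had 1646, 1558, 1510 and 1467 reads, Rpl35a-ps5 had 451 and Rpl35a-ps7 had 62, against 556 reads for Rpl35a itself. In the dd replicate 2 library, the 4 near-identical copies had 10533, 10088, 9589 and 10284 reads, Rpl35a-ps5 had 4051 and Rpl35a-ps7 had 267, against 3637 for the parent. The 4 copies at 99.7% identity to the parent were thus close to each other in both libraries, and each was above the parent. Every one of the 31-base stretches of Rpl35a-ps2 also occurs in Rpl35a-ps3, and the sources used here do not say how a read that matches several places was counted, so these values cannot be assigned to 1 locus.

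Shared sequence was the rule. For each member, the share of its 31-base stretches that also occur in transcripts of another gene was counted: it was 100% in 37 members, at least 50% in 172, under 10% in 36, and 0 in Rpl17-ps2, Rpl26-ps1, Rpl36a-ps4 and Rps13-ps8. The gene that shared most stretches was the parent for 110 members and another gene, often another retrocopy, for 186. The level of a member followed its identity to the parent. Mean FPKM over the 8 libraries had a Spearman rho of 0.875 with percent identity and of 0.915 with the percent of stretches found in the parent, against -0.023 with exon length and -0.023 with the FPKM of the parent (n = 296 members, which share libraries and, in part, reads).

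**Figure D1:**
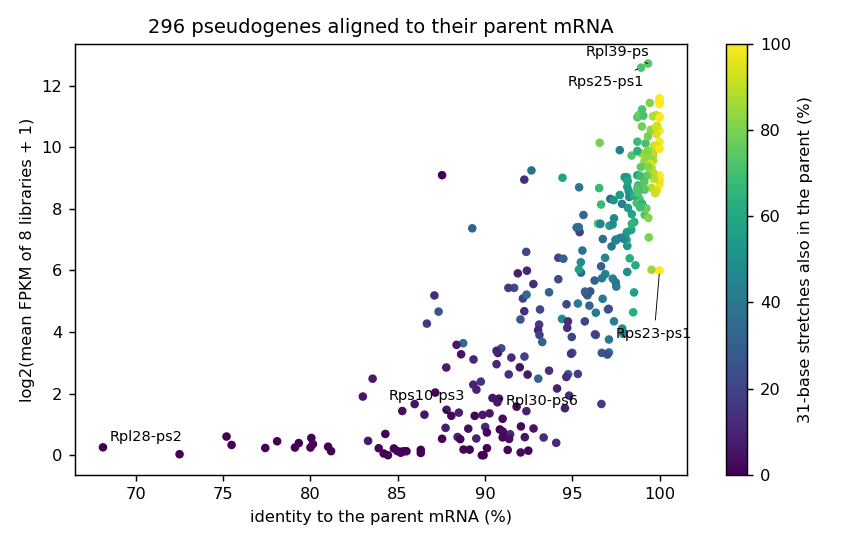
Each point is 1 of 296 members aligned over at least 100 bases; the x axis is percent identity to the parent mRNA, the y axis log2(mean FPKM of 8 libraries + 1), and colour the percent of 31-base stretches also in the parent. Levels climb with identity, Rpl39-ps and Rps25-ps1 are highest, and Rps23-ps1 is low at 100% identity.

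By class of identity, the median level was 0.203 FPKM for the 22 members at up to 85% and 1.48 FPKM for the 38 members between 85% and 90%. It was 6.76 FPKM for 69 members between 90% and 95%, and 80.0 FPKM for 68 between 95% and 98%. It reached 372 FPKM for 42 members between 98% and 99%, and 860.0 FPKM for the 57 above 99%. The same order held by reading frame, with a median of 1060.0 FPKM for the 30 members that encode the identical protein, 154 FPKM for the 68 with an open frame of the same length, and 15 FPKM for the other 200. Their median identities were 99.7%, 97.99% and 93.04% in that order, so frame and identity went together. Members within an intron on the strand of the host had a median of 364 FPKM (n = 26) and a median identity of 98.54%, those on the opposite strand only had 109 FPKM (n = 59) and 96.82%, and the 215 outside introns had 38.8 FPKM and 95.42%.

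A few members left this trend, chosen here after their values were seen. Under 93% identity, 8 members averaged over 50 FPKM. Rpl36a-ps3, at 87.54% identity to Rpl36a, averaged 545.56 FPKM, and it shared 89.3% of its stretches with Rpl36al, the intronless relative of Rpl36a, and none with Rpl36a. The gene named in its symbol was thus not the closest sequence. In the other direction, Rps23-ps1 was identical to Rps23 over its 425 bases and averaged only 62.95 FPKM, against 424.72 FPKM for Rps23, and it overlaps an exon of Gm5148 on the opposite strand. The least similar aligned member, Rpl28-ps2 at 68.11% identity, had 2, 3, 4 and 1 reads in sh, sd, dd and control of replicate 2, and 0, 0, 1 and 0 reads in those of replicate 1.

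A mean of at least 1 FPKM was reached by 245 members and of at least 100 FPKM by 130. The 55 below included 3 members, Rpl36-ps7 and Rps12-ps7 among them, which had 0 reads in all 8 libraries; a count of 0 allows up to 3 reads per library. The 10 members with the highest mean held 31.1% of the summed member FPKM. Rpl39-ps was the highest in every replicate 2 library and Rps25-ps1 in every replicate 1 library.

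Rpl39 encodes a very small large-subunit protein that lines the exit tunnel of the ribosome, and its only member, Rpl39-ps (chr15:102635038-102635188, plus strand), is 99.34% identical to it. Rpl39-ps was at 5102 FPKM in sh, 10079 in sd, 15279 in dd and 8669 in control of replicate 2, and at 3168 in sh, 4578 in sd, 3974 in dd and 3084 in control of replicate 1. Rpl39 was at 468 FPKM in sh, 601 in sd, 1060.06 in dd and 1083 in control of replicate 2, and at 403 in sh, 448 in sd, 436 in dd and 312 in control of replicate 1. The copy was above the parent in all 8 libraries, by 7.86 to 16.8 times in FPKM. In reads the ratio was 0.828 to 1.77, since the copy is 151 bases long and the exons of Rpl39 together measure 1434.

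This length effect entered every comparison with a parent, because FPKM divides by all annotated exon bases, including those of rare transcripts. In FPKM, 113 of 299 members were above their parent in all 8 libraries, 161 in none and 25 in some, and 40 of the 61 parents had at least 1 member above them throughout. With the parent's reads divided by the length of its matched mRNA instead, 72 members were above in all 8 libraries and 203 in none. In reads, 55 were above in all 8 and 217 in none. Members at over 99% identity stood at a median of 10.2 times the parent's FPKM, and 54 of these 57 had a higher mean than the parent, while none of the 22 at up to 85% did.

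Rpl34-ps1, which encodes the identical large-subunit protein, was farthest above its parent among the 10 highest members. It had 9681, 18148, 23963 and 5068 reads in sh, sd, dd and control of replicate 2, and 12050, 15917, 15011 and 6340 reads in those of replicate 1. Rpl34 had 1115, 766, 978 and 621 reads in sh, sd, dd and control of replicate 2, and 1027, 917, 1119 and 321 reads in those of replicate 1. The copy held 8.16 to 24.5 times as many reads as the parent in the 8 libraries, and all of its 31-base stretches occur in other genes, 80.9% in Rpl34. Rps16-ps2, Rpl38-ps2, Rps12-ps3, Rpl36a-ps2 and Rpl31-ps8, each at 100% identity over the copy, and Rps24-ps3 and Rps19-ps6 also had more reads than their parents in all 8 libraries. The lowest of their ratios was 1.25 (Rps24-ps3) and the highest 13.8 (Rps12-ps3).

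Summed over all, members made up most of the FPKM given to members and parents together. Their share was 87.17% ± 1.64 in sh, 88.86% ± 0.09 in sd, 89.02% ± 0.09 in dd and 87.86% ± 2.91 in control (SD, n = 2 each). The treated groups differed from control by -0.70, 0.99 and 1.16 percentage points for sh, sd and dd, less than the spread within control, with a two-sided exact permutation p of 1.0 each, in a design whose smallest p is 0.333. Counted in reads the share was 64.98% to 72.84% over the 8 libraries. With only the 128 members that have under 50% of their stretches in another gene, it was 13.1% to 21.13%.

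No member passed the test in any treatment comparison. limma was run on log2(FPKM + 1) for the 14561 genes with a mean of at least 1 FPKM, all 8 libraries in 1 fit, and a call needs an adjusted p under 0.05 (Benjamini-Hochberg). In sh, sd and dd against control, 0 of the 245 members tested were called, and the share called over all genes was 0.0% in each. At an unadjusted p under 0.05 the members numbered 0, 1 and 0, and all genes 32, 50 and 83. With the replicate number added to the fit, these counts were 1, 8 and 27 for members and 480, 945 and 1310 for all genes. That fit also called 0 genes in each comparison. limma-voom on the recovered reads also called 0 genes in each. The median log2 difference of the members was -0.04 in sh, -0.10 in sd and 0.00 in dd, against 0.15, 0.17 and 0.06 for all genes. Without the control replicate 1 library the members' medians were -1.51, -1.62 and -1.50, and without the control replicate 2 library they were 1.33, 1.34 and 1.51. Without the treated replicate 1 library they were 1.10, 0.93 and 0.98, and without the treated replicate 2 library -1.12, -1.11 and -0.92. The direction thus changed with the number of the library left out, treated or control. These fits had no term for the number, so leaving out 1 library made the numbers unequal between the groups. The split between the numbers, a median of 2.22 for the members, then enters the difference, and these medians do not describe the treatments. The 84 cytosolic ribosomal protein genes on the list used gave 0 calls in each comparison, with medians of 0.04, -0.05 and 0.08. A p that misses the threshold does not show that the groups are alike. The split between the numbered libraries is part of the residual spread in the fit without the number.

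Within each number, the members differed from control in opposite directions. In replicate 1 their median log2 differences were 0.24 for sh, 0.35 for sd and 0.50 for dd, and 182, 194 and 226 of 245 members were higher than in control. The medians there were 0.40, 0.31 and 0.52 for the parents and 0.10, 0.31 and 0.28 for all genes. In replicate 2 the members' medians were -0.37, -0.57 and -0.54, and 37, 75 and 79 members were higher. The medians there were -0.31, -0.44 and -0.22 for the parents and 0.20, 0.03 and -0.13 for all genes. Each of these sets 1 library against 1, with no test. The sign was opposite between the numbers in 174, 143 and 151 members for sh, sd and dd. The 3 comparisons share the control libraries, whose replicate 2 library was the shallowest.

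**Figure D2:**
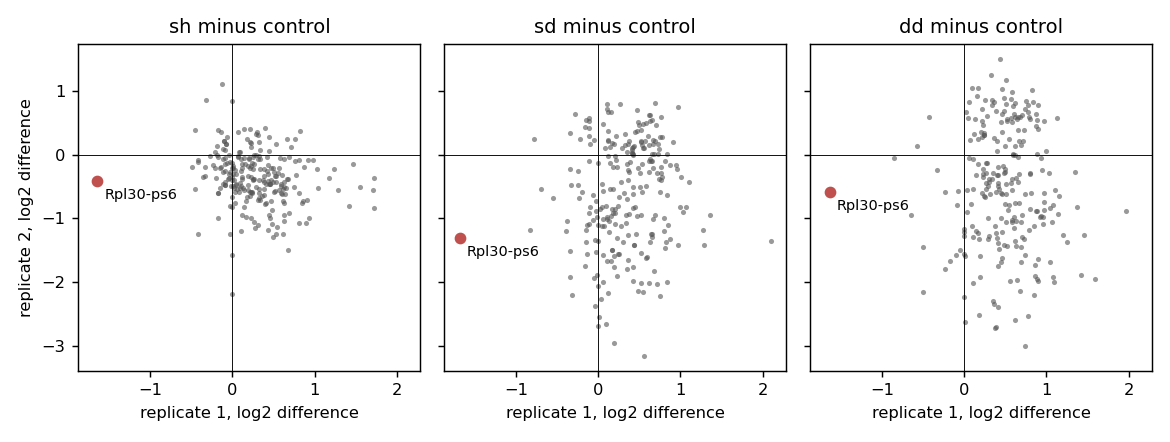
Each point is 1 of 245 members; the x axis is the log2(FPKM + 1) difference from control within replicate 1 and the y axis the same within replicate 2, for sh, sd and dd (left to right). Most points lie to the right of 0 and below it, and Rpl30-ps6 (red) is below 0 on both axes in every panel.

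Members whose treated libraries both lay outside the control range numbered 2 in sh, 1 in sd and 2 in dd, all lower, which is 0.816%, 0.408% and 0.816% of the 245; over all genes 10.5%, 13.8% and 16% lay outside in either direction, and 2.13%, 2.69% and 4.72% on the lower side. Rpl30-ps6 was among them in all 3. It is a copy of Rpl30, which encodes a large-subunit protein, and at 90.8% identity it shares only 4.4% of its stretches with the parent and 19.5% with any gene. Its bases matching coding bases 53 to 112 of Rpl30, at chr1:86473711-86473770 on the plus strand, hold 10 differences, in capitals in both. This window was chosen for having the most differences.
Rpl30: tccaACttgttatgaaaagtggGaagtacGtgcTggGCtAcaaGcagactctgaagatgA
Rpl30-ps6: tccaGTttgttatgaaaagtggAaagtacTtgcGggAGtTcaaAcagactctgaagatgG
Rpl30-ps6 had 1.05 and 3.29 FPKM in sh, 0.99 and 1.31 in sd and 1.05 and 2.82 in dd, against 5.38 and 4.71 in control, replicate 1 first. These values rest on 5 and 16 reads in sh, 7 and 7 in sd and 7 and 20 in dd, against 12 and 6 in control. Every treated library was below both controls in FPKM, at counts too small for a firm value. The log2 differences were -1.03 ± 0.60 in sh, -1.49 ± 0.60 in sd and -1.11 ± 0.60 in dd (SE), with limma adjusted p of 1.0 in each and an unadjusted p of 0.0449 in sd. Rpl30 itself had 6.56 and 31.87 FPKM in sh, 10.14 and 20.71 in sd and 7.88 and 32.34 in dd, against 7.12 and 45.07 in control, so its groups overlapped.

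The other members outside the control range were Rpl34-ps1 in sh and Rps27-ps1 in dd. Rpl34-ps1 had 2478 and 1957 FPKM in sh, against 2792 and 3913 FPKM in control, a log2 difference of -0.59 ± 0.80 (SE; limma adjusted p = 1.0). Rps27-ps1, a copy of the small-subunit gene Rps27 within an intron of Ino80d, had 25.24 and 13.96 FPKM in dd, against 28.51 and 46.67 FPKM in control, a log2 difference of -0.92 ± 0.75 (SE; limma adjusted p = 1.0).

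Nearly all members were higher in the libraries numbered 2. The replicate 2 libraries were set against the replicate 1 libraries with group as a term, 4 against 4. limma called 233 of 245 members higher and 2 lower at an adjusted p under 0.05. Over all 14561 genes tested, 46.6% were called higher and 14.6% lower, 61.3% in all. The median log2 difference of the members was 2.22, with quartiles of 1.53 and 2.83, against 0.73 for all genes. In 225 members every replicate 2 library was above every replicate 1 library, which was so for 41.9% of all genes. The filter on the mean keeps low members that are high in replicate 2; without it, 241 of 297 members were called higher and 2 lower, and 16.7% and 4.01% of 49548 genes. The labels do not say what the numbers mark, so culture, library and sequencing cannot be told apart.

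Markers of primitive endoderm, an early extraembryonic lineage, differed between the same libraries. The 5 markers summed to 4.83, 3.77, 1.36 and 7.0 FPKM in sh, sd, dd and control of replicate 2, against 31.25, 19.12, 23.98 and 21.69 FPKM in those of replicate 1, and none was at 0 in both libraries of a group. limma called 4 of the 5 lower and 0 higher in replicate 2 at an adjusted p under 0.05, with a median log2 difference of -1.58. Over all genes, 46.6% were called higher and 14.6% lower. Gata4, on this list, was higher in replicate 2 in control (2.73 against 0.96 FPKM) and sh (1.34 against 0.99 FPKM), and lower in sd and dd. Dab2, an endocytic adaptor, was at 0.26 to 0.82 FPKM in replicate 2 and at 6.88 to 10.46 FPKM in replicate 1. Of the 8 stem cell markers, 3 were called higher and 1 lower in replicate 2. The part of these markers in the members' differences was not tested.

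**Figure D3:**
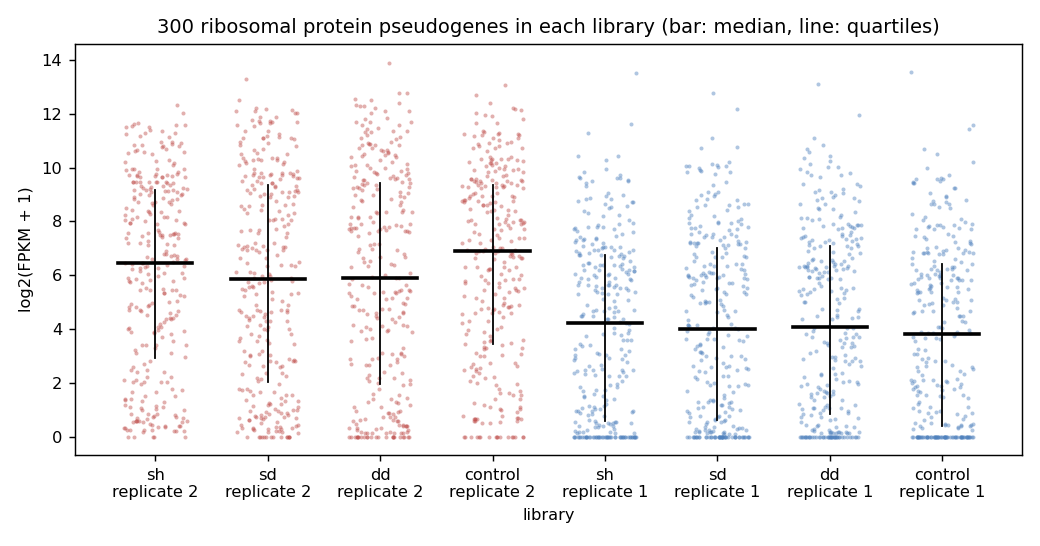
Each point is 1 of 300 members in 1 library, in log2(FPKM + 1); bars are medians and lines the quartiles, with the replicate 2 libraries (red) left of the replicate 1 libraries (blue). Medians on the FPKM scale were 57.2 to 118.0 in replicate 2 and 13.2 to 17.9 in replicate 1.

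The size of this split depended on the scaling. After quantile normalization 180 members were called higher and 11 lower, against 4015 (27.6%) and 4343 (29.8%) of all genes. After median ratio scaling 203 were called higher and 4 lower, against 4990 (34.3%) and 3623 (24.9%) of all genes. The median of all genes then moved to 0.02 and 0.25, and that of the members to 1.26 and 1.60. The split was not limited to these members. In the fit without this scaling, 46.6% of all genes were called higher and 14.6% lower. There, 77 of 84 cytosolic ribosomal protein genes were called higher and 2 lower. Of 214 other genes with -ps in their symbol that were tested, 184 were called higher and 5 lower in that fit.

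Genes with few reads were more often above 0 in the same libraries. Olfactory receptor genes, which embryonic stem cells are not known to use, had at least 1 read in 97.8%, 96.3%, 50.5% and 86.2% of 1107 genes in sh, sd, dd and control of replicate 2, against 7.50%, 8.22%, 7.68% and 5.24% in those of replicate 1. Summed over these genes, reads per kilobase were 3.58, 3.09, 0.554 and 1.26 in sh, sd, dd and control of replicate 2. In those of replicate 1 they were 0.492, 0.488, 0.565 and 0.155, so in dd this sum was not higher in replicate 2. The members' share of reads was highest in the dd replicate 2 library, at 9.62%. The 36 members with under 10% of their stretches in another gene were above 0 in 91.7%, 83.3%, 63.9% and 75% of cases in replicate 2, against 25%, 36.1%, 38.9% and 13.9% in replicate 1. Their median levels were 0.63, 0.49, 0.13 and 1.0 FPKM in replicate 2, in the same order, and 0 in each library of replicate 1. The part of this low signal in the members' differences was not tested. Only 9 of the 36 averaged at least 1 FPKM, among them Rps19-ps11, Rpsa-ps3, Rpl36-ps4, Rpl31-ps25, Rps29-ps, Rpl26-ps3, Rps10-ps3 and Rpl31-ps5. Rps19-ps11, at a mean of 6.24 FPKM, had 58, 25, 37 and 46 reads in sh, sd, dd and control of replicate 2 and 7, 4, 11 and 1 reads in those of replicate 1.

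Between the numbers, the size of the difference was set beside that of the parent. Across the 245 members tested, the difference of the copy had a Pearson r of 0.589 and a Spearman rho of 0.543 with that of the parent. Among the 99 members over 98% identity r was 0.806, and among the 24 tested at up to 90% it was 0.267. These are descriptions, since copies of 1 parent share its value and near-identical copies may share its reads.

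**Figure D4:**
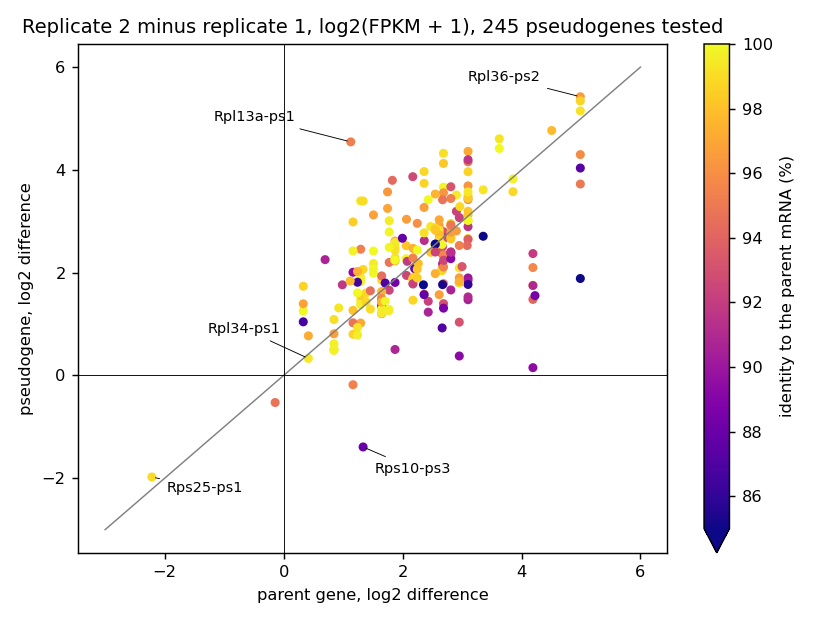
Each point is 1 of 245 members; the x axis is the replicate 2 minus replicate 1 difference in log2(FPKM + 1) of the parent gene and the y axis that of the member, coloured by identity, with the line of equal values. Rps25-ps1 lies with its parent below 0, Rps10-ps3 is below 0 with a parent above 0, and Rpl13a-ps1 lies above the line.

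The largest differences belonged to copies of Rpl36, a large-subunit gene. Rpl36-ps2 was at 1864, 2155, 2188 and 2639 FPKM in sh, sd, dd and control of replicate 2, against 48.5, 51.8, 80.7 and 31.1 FPKM in those of replicate 1. Its log2 difference was 5.42 ± 0.27 (SE; limma adjusted p = 2.3e-06), beside 4.99 ± 0.34 for Rpl36. Rpl36-ps3 (5.34) and Rpl36-ps12 (5.15) were close to it, and no library of one number reached into the range of the other. Rps15-ps2 had 4.77, beside 4.51 for its parent. Rpl28-ps3 (4.61) and Rpl28-ps1 (4.42) lay above Rpl28 (3.63). Rpl31-ps1, at 4.36, had 227, 229, 318 and 107 reads in sh, sd, dd and control of replicate 2, and 12, 12, 21 and 0 reads in those of replicate 1.

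Rpl13a-ps1 differed more than its parent. Rpl13a encodes a large-subunit protein that is also known, from human monocytes, to leave the ribosome and silence translation of certain mRNAs. The copy, at 95.26% identity, was at 323, 263, 213 and 488 FPKM in sh, sd, dd and control of replicate 2, against 12.5, 11.5, 13.1 and 11.7 FPKM in those of replicate 1. Rpl13a was at 122, 132, 156 and 149.99 FPKM in replicate 2, against 72.2, 62.9, 72.1 and 48.5 FPKM in replicate 1, in the same order. The log2 differences were 4.55 ± 0.26 for the copy and 1.13 ± 0.23 for the parent (SE). The copy shares 24.2% of its stretches with Gm11478, another processed pseudogene, which averaged 3788 FPKM, and 23.9% with Rpl13a. The difference between copy and parent was not tested.

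Rps25-ps1 ran against the rest. Rps25, a small-subunit protein gene, has this 1 member, at chr6:145266400-145266777 on the plus strand, 98.94% identical and open over the whole frame. Coding bases 1 to 60 differ at 2 places, in capitals.
Rps25: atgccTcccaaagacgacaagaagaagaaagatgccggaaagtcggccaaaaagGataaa
Rps25-ps1: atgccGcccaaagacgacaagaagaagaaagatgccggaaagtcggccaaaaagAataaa
Rps25-ps1 was at 1801 FPKM in sh, 2628 in sd, 3347 in dd and 2217 in control of replicate 2, against 11586 in sh, 6937 in sd, 8807 in dd and 11875 in control of replicate 1. Rps25 was at 155, 165, 188 and 173 FPKM in replicate 2, against 1028, 551, 718 and 966 FPKM in replicate 1, in the same order. Both were lower in replicate 2 in every group, without overlap. The log2 differences were -1.98 ± 0.24 for the copy (limma adjusted p = 0.000146) and -2.21 ± 0.23 for the parent (adjusted p = 5.2e-05). The copy held 1.58 to 2.49 times the reads of the parent in each library.

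Rps10-ps3 was the other member called lower, and its parent was called higher. Rps10 encodes a small-subunit protein, and the copy is 88.07% identical, with 2.3% of its stretches in any other gene. Coding bases 34 to 93 of Rps10 and the matching bases of the copy, at chr4:3978658-3978717 on the minus strand, hold 11 differences, in capitals. The window was again the one with the most differences.
Rps10: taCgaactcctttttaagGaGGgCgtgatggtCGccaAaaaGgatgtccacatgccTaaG
Rps10-ps3: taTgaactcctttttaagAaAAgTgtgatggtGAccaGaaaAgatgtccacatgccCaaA
The copy had 8, 2, 1 and 0 reads in sh, sd, dd and control of replicate 2, against 19, 23, 17 and 10 reads in those of replicate 1. In FPKM this was 1.15, 0.26, 0.10 and 0 in replicate 2, against 2.77, 2.26, 1.77 and 3.12 in replicate 1. The ranges did not overlap, and its log2 difference was -1.39 ± 0.34 (SE; limma adjusted p = 0.00671), while that of Rps10 was 1.34 ± 0.41 (adjusted p = 0.019). The low level makes this a difference of few reads.

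**Figure D5:**
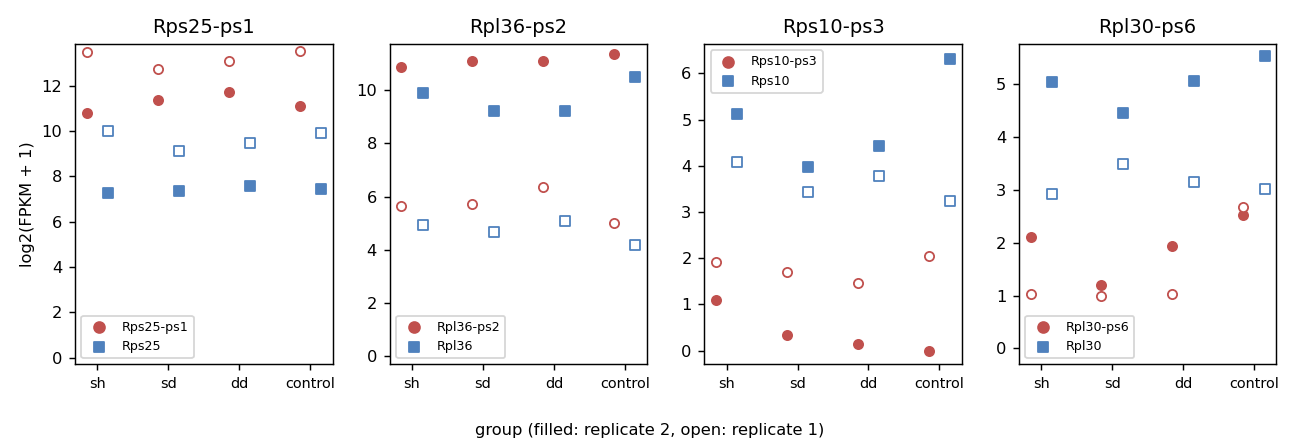
Levels in log2(FPKM + 1) of 4 members (red circles) and their parents (blue squares) by group, with filled symbols for replicate 2 and open symbols for replicate 1. Rps25-ps1 and Rps10-ps3 are lower in replicate 2 in every group, Rpl36-ps2 is higher, and Rpl30-ps6 is highest in the control libraries.

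Of the tested members, 10 were not called between the numbers, among them Rpl15-ps1, Rpl23a-ps4, Rpl30-ps6, Rpl34-ps1, Rpl35a-ps2, Rpl35a-ps7, Rpl7a-ps7, Rps2-ps2 and Rps27-ps1. Rpl35a-ps2 shares 100% of its stretches with Rpl35a-ps3, so its lack of a call cannot be assigned to a single locus. For Rpl34-ps1 the log2 difference was 0.33 ± 0.20 (SE; limma adjusted p = 0.174), and its parent Rpl34 had 0.42 and was also not called. Rps27-ps1 (-0.53) and Rps27 (-0.14) were not called either. The copies of Rpl35a differed by 0.49 to 1.09, beside 0.85 for Rpl35a, and those of Rpl36 differed by 1.89 to 5.42, as against 4.99 for Rpl36. The members' share of the FPKM of members and parents was 87.46% ± 1.79 in replicate 2 and 89.0% ± 0.67 in replicate 1 (SD, n = 4 each), a difference of -1.54 percentage points (two-sided exact sign-flip permutation p = 0.5, smallest possible 0.125). Counted in reads, that difference was 2.63, and over the 128 members with under 50% shared stretches it was 5.74, higher in replicate 2 in 4 of 4 groups.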

How the data were processed

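Illumina libraries were made from total RNA, per the labels' protocols. FPKM per gene were deposited by the authors; CASAVA 1.4, HISAT2 and mm10 are named, per the submitters' processing notes. Not given in the sources used here are the counting program, annotation, strand setting, FPKM formula and treatment of reads matching several places. Overlapping and antisense genes therefore could not be told apart. Of 58420 rows, 6082 held no value and 52081 matched GENCODE M21 (GRCm38) by identifier; 1107 olfactory receptor genes were taken from the same match. FPKM times exon length gave whole reads, within 0.02, for 98.3% to 98.88% of values under 100 reads. Counts and floors carry counting error only.

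Members were aligned to the parent's mRNA on both strands with Biopython 1.88, and stretches of 31 bases were counted over all GENCODE transcripts. Values of log2(FPKM + 1) were tested with limma 3.58.1 (R 4.3.3), a scale which understates differences of low genes, with eBayes trend, 4 residual degrees of freedom (3 with group and number) and Benjamini-Hochberg adjustment at 0.05. The fit was also run on simulated data with independent noise and no split between the numbers. That run therefore does not cover the split seen in these libraries. Shares were compared by exact permutation. Members and lists were chosen with earlier results of these data known. Named members are the 10 highest by mean FPKM, for each treatment up to 4 whose libraries lay outside the control range, the 8 largest called differences in each direction between numbers, the lowest and highest identity, and all parents of these; others were chosen after their values were seen. Some members are not reported here by name.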

Additional observations from a re-analysis of the deposited data

How the results depend on the processing

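Of the differences of named genes under other settings, 354 kept direction and call. Rpl30 in dd against control went to 0.00 (voom) and, with single libraries left out, ran from -1.42 to 1.08, in sd from -1.57 to 0.94, in sh from -1.55 to 0.96, and Rpl34 in sh from -1.11 to 0.60. Such ranges against control, here and below, also carry the split between the numbers, which were then unbalanced. Rpl34-ps1 between numbers turned to -0.33 (median ratio scaling) and -0.76 (quantile normalization). Among called differences between numbers, scaling ended the calls of Rpl39-ps (0.65, median ratio), Rps12-ps3 (0.63 and 0.22) and Rps24-ps3 (0.63 and 0.10), and of the parents Rpl13a (0.47 and 0.30) and Rps10 (0.71 and 0.80), median ratio first. The cause was not tested. The genes called between numbers fell to 5368 with a minimum mean of 5 FPKM, by fewer genes tested, and leaving out single libraries gave 6992 to 8789. The share difference was -1.50 (sd) and -1.0 (dd) percentage points over members with under 50% shared stretches, where it was 5.74 between numbers; between numbers it was 2.63 in reads and 0.88 per matched mRNA length, an alternative chosen after seeing the data. Leaving out single libraries, it ran from -2.75 to 1.36 in sh, -1.06 to 3.05 in sd, -0.90 to 3.22 in dd and -2.10 to -0.69 between numbers. With the replicate number as a block, 0 genes were called in sh, sd and dd; members at an unadjusted p under 0.05 numbered 1, 8 and 27 of 245, against 480, 945 and 1310 of all 14561 genes, and deviations of same-numbered libraries correlated at 0.75 to 0.893 between groups. Depth limits members under about 10 reads, and the control replicate 2 library most.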
